A study of Mus musculus with 6 samples.

Results

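Dcun1d1, Pcyt1b, Arfgap1, Bcor, Mbnl2, Calcrl, Sec16a, Bend6, Cacnb3 and Hgs are 10 mouse genes in which at least 1 annotated transcript was higher and at least 1 was lower in cells given palovarotene on top of BMP4 than in cells given BMP4 alone. They were picked for that opposite movement, so the transcript levels, transcript shares and gene levels below describe what was chosen. No p-value of them is given, and the counts of their calls are no independent support. They are 10 of the 11773 genes and their 31 transcripts are among the 22330 transcripts listed in the deposited tables. The libraries came from 2H11, a mouse line labelled endothelial, with axillary lymph node/vascular epithelium as its source and C3H/HeJ as its strain. Cells were starved and then treated for 48 hours, 3 libraries with BMP4 and 3 with BMP4 plus palovarotene, an agonist of the retinoic acid receptor gamma. BMP4, a bone morphogenetic protein, was present in both groups, and no group without it was analysed here. Polyadenylated RNA was sequenced from both ends by a strand-specific method, and levels are FPKM, fragments scaled to transcript length and to the mapped fragments of the library. The labels do not say that libraries of a group came from separate cultures, so the spread between them, and every p-value below, may reflect technical variation.

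A gene yields different transcripts when RNA polymerase starts at another promoter, or when the splicing machinery includes, skips or trims an exon. Either can change the protein, if the altered stretch lies in coding sequence, or only the untranslated part of the message. Retinoid receptors are transcription factors that bind DNA at retinoic acid response elements near target genes. Splicing of the kind seen in several of these genes is directed by RNA-binding proteins, among them the Muscleblind family to which Mbnl2 itself belongs.

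Among the 10 genes the transcript with the larger share and the one with the smaller share under palovarotene differed in several ways. A share is the percentage of the summed FPKM of a gene's listed transcripts, and the gaining and losing transcripts of a gene are those with the largest increase and decrease in mean share. The pair began at separate first exons in 5 genes (Dcun1d1, Pcyt1b, Bcor, Mbnl2 and Cacnb3). In 3 genes (Arfgap1, Calcrl and Sec16a) 1 of the pair begins, in the annotation, inside an exon that is internal in another listed transcript. In the remaining 2 genes, Bend6 and Hgs, the pair shared its first exon and differed in an internal exon. The coding sequence was identical within the pair in 2 genes, Mbnl2 and Calcrl. It was longer in the gaining transcript in 4 genes and shorter in 4, and the gaining transcript as a whole was the shorter one in 6 genes. Several models are weakly supported in the annotation, whose transcript support level runs from 1, the best, to 5. The level was 5 for the gaining transcript in Arfgap1, Bcor, Sec16a and Hgs, and for the losing transcript in Cacnb3 and Hgs. It was also 5 for the transcript outside the pair in Dcun1d1 and Sec16a. It was missing for the pair of Mbnl2 and for that gene's leading transcript. Every other listed transcript had level 1.

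The share that moved between transcripts, taken as the sum over transcripts of the increases in mean share, had a median of 53.3 percentage points over the 10 genes. Over all 5574 genes with at least 2 listed transcripts the median was 5.43 points, the 90th percentile 24.5 and the 99th percentile 53.2. Pcyt1b had the largest value of the 10 at 88.4 points and ranked 3rd of the 5574 genes, and Hgs had the smallest at 21.5 points and ranked 694th. The transcript with the largest mean share differed between the groups in 8 of the 10 genes, and in 12.7% of all genes with at least 2 listed transcripts. Mbnl2 and Bend6 are the exceptions, in which the same transcript led in both groups, but without BMP4 replicate 2 the exceptions were Bend6 and Cacnb3.

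**Figure D1:**
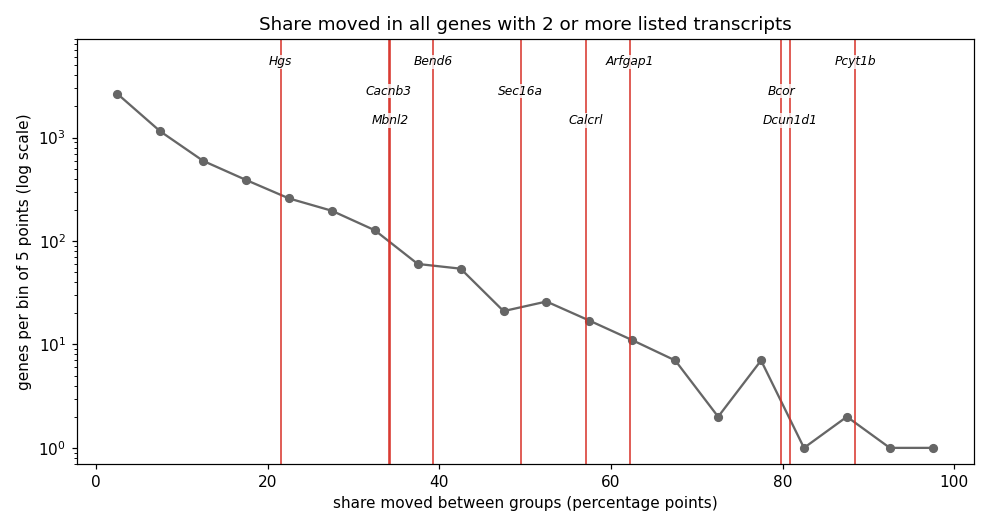
Number of genes (log scale) in each 5-point bin of the share moved between transcripts, over the 5574 genes with at least 2 listed transcripts. Points with a joining line give the count in each bin that holds a gene, and red lines mark the 10 genes, from Hgs at 21.5 to Pcyt1b at 88.4 percentage points, all to the right of the median of 5.43.

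Transcript calls by limma on log2(FPKM + 1), with Benjamini-Hochberg adjustment over all transcripts, were made for 12.9% of the transcripts tested. Of the 5240 genes with at least 2 tested transcripts, 19 (0.363%) had 1 called higher and 1 called lower. All 10 genes are among these 19, as their choice required. The further fits reuse the libraries and contrast that chose the genes, so they are no support for them. They show only how far a call rests on a library or a setting. Fewer of the 10 were called both ways when a library was left out: 8 without BMP4 replicate 1, palovarotene replicate 2 or palovarotene replicate 3, 7 without BMP4 replicate 2, and 6 without BMP4 replicate 3 or palovarotene replicate 1. Dcun1d1, Pcyt1b, Bcor, Bend6 and Hgs were called in each of these 6 fits. The first 4 of them were those called with the replicate block, and Cacnb3 and Hgs were the 2 called among transcripts with a mean of at least 5 FPKM. The other genes could not be called both ways there, because fewer than 2 of their transcripts passed that filter. Of the 6 fits, Sec16a was called only in that without BMP4 replicate 1, and it was lost with a pseudocount of 0.1. Calcrl was called only without palovarotene replicate 1 or replicate 2, and Mbnl2 only without BMP4 replicate 2 or palovarotene replicate 3. Levels did not overlap between the groups for 24 of the 31 transcripts, against 34.3% of all listed transcripts, and shares did not overlap for 27, against 15.0%. At 0 in all BMP4 libraries and at 1 FPKM or more in all palovarotene libraries were 4 of the 31, against 0.0717% of all listed transcripts. Nothing is read from these counts, since the same contrast chose the genes. At the gene level, the gene row overlapped between the groups in 5 of the 10 genes (Dcun1d1, Pcyt1b, Arfgap1, Mbnl2 and Hgs). It was higher with palovarotene in Bcor and Cacnb3 and lower in Calcrl, Sec16a and Bend6, while 55.3% of all gene rows did not overlap.

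Pcyt1b (ENSMUSG00000035246.16, chrX:93654863-93749951, plus strand, GRCm38) encodes the beta form of CTP:phosphocholine cytidylyl transferase, the regulated enzyme of phosphatidylcholine synthesis. Its listed transcripts, Pcyt1b-202 and Pcyt1b-201, start at first exons that each carry their own start codon and join the same second exon. The coding stretches of those first exons are shown because they are what the change of first exon replaces. Capitals mark the coding part of the first exon, 27 nucleotides at chrX:93655190-93655216 in Pcyt1b-202 and 117 nucleotides at chrX:93675360-93675476 in Pcyt1b-201, and lower case marks the shared exon that follows.
Pcyt1b-202: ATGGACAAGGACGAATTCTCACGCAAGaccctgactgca
Pcyt1b-201: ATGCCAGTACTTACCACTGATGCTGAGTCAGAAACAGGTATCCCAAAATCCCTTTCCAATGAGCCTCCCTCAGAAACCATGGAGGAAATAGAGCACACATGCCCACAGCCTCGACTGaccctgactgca

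Pcyt1b-202 stood at 5.81, 6.86 and 6.14 FPKM in the 3 BMP4 libraries, and was listed at 0, 0 and 0.110 FPKM with palovarotene. Pcyt1b-201 stood at 0.969, 0.830 and 0.522 FPKM with BMP4 and at 6.76, 6.55 and 6.17 FPKM with palovarotene. Neither transcript overlapped between the groups, and the lower of the pair in one group was the higher in the other. The share of Pcyt1b-201 was 10.97% ± 3.24 (SD, n = 3) with BMP4 and 99.4% ± 1.01 (SD, n = 3) with palovarotene. The gene row hardly showed this, at 6.18, 6.997 and 6.06 FPKM with BMP4 and 6.19, 5.98 and 5.74 FPKM with palovarotene, and the groups overlapped. The palovarotene form carries 90 more coding nucleotides, 369 against 339 codons.

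The windows of 250 bases before the annotated RefSeq start of each Pcyt1b transcript (RefSeq, GRCm38.p6, plus strand) are shown because the start nearest the palovarotene form differs from the other in composition. They lie at chrX:93654613-93654862 for Pcyt1b-202 and chrX:93674862-93675111 for Pcyt1b-201, and capitals mark a match to the half-site letters AGTTCA.
Pcyt1b-202: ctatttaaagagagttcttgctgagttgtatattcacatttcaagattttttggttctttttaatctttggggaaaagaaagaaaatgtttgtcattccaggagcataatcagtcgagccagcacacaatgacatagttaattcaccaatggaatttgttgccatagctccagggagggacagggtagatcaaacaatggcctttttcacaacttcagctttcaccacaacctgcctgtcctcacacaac
Pcyt1b-201: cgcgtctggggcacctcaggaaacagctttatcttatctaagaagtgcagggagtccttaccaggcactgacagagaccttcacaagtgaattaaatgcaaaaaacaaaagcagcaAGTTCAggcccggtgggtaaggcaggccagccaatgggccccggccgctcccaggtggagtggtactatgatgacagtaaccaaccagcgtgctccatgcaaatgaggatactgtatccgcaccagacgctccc

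The window before Pcyt1b-202 held 1 CpG dinucleotide and that before Pcyt1b-201 held 8, against a median of 6 (quartiles 2 and 16) over all 32851 RefSeq windows of this length. AGTTCA, searched on both strands like the other motifs, occurred in the Pcyt1b-201 window only and in 11.8% of all windows. AGGTCA, in 14.0% of all windows, and TATAAA, in 12.4%, were in neither window, and GGGCGG, in 32.7%, was in neither. Over all 17 windows of the 10 genes, AGTTCA was in this 1 alone, AGGTCA and TATAAA were in 0 and GGGCGG was in 9. A match to such short letters is a description of the window and not a binding site.

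Dcun1d1 (ENSMUSG00000027708.14, chr3:35892105-35937445, minus strand) encodes a co-ligase that helps attach the ubiquitin-like protein NEDD8 to cullins. The listed transcripts are Dcun1d1-201, whose coding sequence begins 45 nucleotides earlier, and Dcun1d1-203 and Dcun1d1-212, which share one coding sequence of 732 nucleotides and differ outside it. The extra coding nucleotides of Dcun1d1-201 (capitals; they run across an exon junction between 35921146 and 35932787 of chromosome 3) are given with the start of the shared coding sequence in lower case.
Dcun1d1-201: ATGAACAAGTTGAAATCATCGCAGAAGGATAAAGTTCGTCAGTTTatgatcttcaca

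Dcun1d1-201 was at 5.60, 9.99 and 9.24 FPKM in the BMP4 libraries and at 0.589, 0.501 and 0.463 FPKM with palovarotene. Dcun1d1-212 was listed at 0 in each BMP4 library and stood at 10.99, 8.58 and 8.62 FPKM with palovarotene. Both were apart between the groups, and each led the gene in one of them. Dcun1d1-203 overlapped, at 3.41, 0.719 and 0 FPKM with BMP4 and 2.11, 2.36 and 2.15 FPKM with palovarotene, and the first BMP4 library was the highest of all 6. Dcun1d1-201 therefore held 85.2% ± 20.2 (SD, n = 3) of the listed expression with BMP4 and 4.27% ± 0.130 (SD, n = 3) with palovarotene, and Dcun1d1-212 held 77.4% ± 2.68 (SD, n = 3) with palovarotene. Grouped by coding sequence, the form without the 45 nucleotides was 14.8% with BMP4 and 95.7% with palovarotene. The gene row overlapped, at 5.34 ± 0.539 and 4.66 ± 0.456 FPKM (SD, n = 3 each). The listed transcripts summed to 9.01, 10.7 and 9.24 FPKM with BMP4 and to 13.7, 11.4 and 11.2 FPKM with palovarotene. The total over which the shares are taken was thus higher with palovarotene, while the gene row was not. Dcun1d1-212 starts downstream of the other transcripts, at a window with 6 CpG, while the windows nearest Dcun1d1-201 and Dcun1d1-203 held 31 and 30. The RefSeq start nearest Dcun1d1-201 lies 506 bases downstream of that transcript's annotated start, so its window lies inside the transcript and not before it. The annotation holds an antisense gene, Gm15952, over the 5′ end of Dcun1d1. The library kit keeps strand, but no source states whether StringTie was told of it, so the pair may share reads.

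Cacnb3 (ENSMUSG00000003352.13, chr15:98632220-98644530, plus strand) encodes the beta-3 subunit of voltage-gated calcium channels, a cytoplasmic protein that brings the pore-forming subunit to the membrane. It had the highest gene level of the 10. Cacnb3-202 and Cacnb3-201 have their own first exons and start codons, and Cacnb3-202 also has an 81-nucleotide coding exon at chr15:98641177-98641257 that Cacnb3-201 lacks. Capitals mark the 42 and 45 coding nucleotides of the first exons, at chr15:98632479-98632520 and chr15:98635169-98635213, before the shared exon in lower case.
Cacnb3-202: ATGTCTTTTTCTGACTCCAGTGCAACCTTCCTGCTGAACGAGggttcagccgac
Cacnb3-201: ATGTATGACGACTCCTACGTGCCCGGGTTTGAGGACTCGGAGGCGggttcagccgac

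Cacnb3-201 stood at 43.1, 28.1 and 32.9 FPKM with BMP4 and at 81.0, 93.3 and 79.3 FPKM with palovarotene. Cacnb3-202 stood at 29.5, 37.0 and 40.5 FPKM with BMP4 and at 18.5, 13.3 and 18.8 FPKM with palovarotene. All palovarotene libraries were above the BMP4 libraries for the first and below them for the second. With BMP4 the pair was close to even, the share of Cacnb3-201 being 59.4, 43.2 and 44.8% in the 3 libraries, and with palovarotene it was 81.4, 87.5 and 80.8%. Which of them led with BMP4 rests on single libraries: without BMP4 replicate 2 or without BMP4 replicate 3 Cacnb3-201 led in both groups. For the gene as a whole the level was 61.9 ± 4.18 FPKM with BMP4 and 90.8 ± 4.29 FPKM with palovarotene (SD, n = 3 each), a ratio of 1.47, with no overlap. The RefSeq windows nearest the starts held 2 CpG for Cacnb3-202 and 23 for Cacnb3-201. The RefSeq start nearest Cacnb3-202 lies 108 bases downstream of that transcript's annotated start, so its window spans that start. Both transcripts have another version in the annotation used for exons than in the deposited table.

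Bcor (ENSMUSG00000040363.15, chrX:12036740-12160355, minus strand) encodes the BCL6 corepressor, a subunit of a variant polycomb repressive complex. Bcor-201 starts at 12160355, far upstream of the common start at 12080553 of Bcor-202, Bcor-203, Bcor-204 and Bcor-206. Bcor-201 was listed at 0.00148, 0 and 0 FPKM with BMP4 and stood at 6.10, 6.10 and 6.74 FPKM with palovarotene. The 4 downstream-start transcripts together held 100% of the listed expression with BMP4 and 20.2% with palovarotene. Bcor-202, at 1.48, 1.96 and 1.46 FPKM with BMP4, kept the most of them, at 1.07, 1.40 and 0.352 FPKM with palovarotene. Bcor-203 was at 1.36, 1.18 and 1.18 FPKM and then at 0.469, 0.123 and 0.505 FPKM. Bcor-204 was at 1.59, 1.44 and 1.46 FPKM and then at 0.0890, 0.184 and 0.555 FPKM. Each of these was lower in all palovarotene libraries than in any BMP4 library. Bcor-206, which has the same coding sequence of 5121 nucleotides as Bcor-201, was at 1.52, 1.31 and 1.08 FPKM with BMP4 and at 0.00281, 0.0105 and 0.00232 FPKM with palovarotene. The coding sequence shared by Bcor-201 and Bcor-206 thus went from 22.8% of the gene to 79.9%, and 57.1 of the 79.8 points that moved between transcripts changed the coding sequence.

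The coding difference in Bcor lay in an optional exon of 54 nucleotides and an optional extension of 102 nucleotides. The exon, at chrX:12055639-12055692, is in Bcor-202 and Bcor-204, and is shown in capitals between its neighbours.
Bcor-202: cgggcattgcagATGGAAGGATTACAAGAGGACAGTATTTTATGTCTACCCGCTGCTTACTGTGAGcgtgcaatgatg

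Transcripts with this exon held 55.2% ± 3.25 of the listed Bcor expression with BMP4 and 15.5% ± 4.57 with palovarotene (SD, n = 3 each). Those with the extension, Bcor-203 and Bcor-204, held 48.4% ± 3.51 and 8.05% ± 4.60 (SD, n = 3 each). The gene row was 4.53 ± 0.338 and 5.75 ± 0.149 FPKM (SD, n = 3 each), higher in every palovarotene library than in any BMP4 library. Bcor was the lowest of the 10 genes with BMP4.

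Mbnl2 (ENSMUSG00000022139.17, chr14:120275669-120431697, plus strand) encodes a Muscleblind protein that binds RNA and regulates alternative splicing. Its 4 listed transcripts fall into 2 coding forms, with and without a coding exon of 54 nucleotides at chr14:120395712-120395765, printed in capitals.
Mbnl2-208: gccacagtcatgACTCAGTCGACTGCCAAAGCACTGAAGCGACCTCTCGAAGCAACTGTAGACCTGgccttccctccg

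Mbnl2-208, which includes the exon, led on average in both groups, at 4.69, 9.51 and 4.99 FPKM with BMP4 and 9.58, 8.93 and 8.69 FPKM with palovarotene. The second BMP4 library was level with the palovarotene libraries, and the groups overlapped. Its lead with BMP4 rests on that library: in the first BMP4 library Mbnl2-203 was higher, and without BMP4 replicate 2 the mean BMP4 share was 47.1% for Mbnl2-203 and 41.2% for Mbnl2-208. Among the transcripts that skip the exon, Mbnl2-203 was at 6.52, 5.87 and 4.86 FPKM with BMP4 and 1.72, 1.62 and 2.68 FPKM with palovarotene, and Mbnl2-204 was at 0.0186, 0.211 and 0.347 FPKM and then at 3.97, 4.36 and 1.44 FPKM. These are the transcripts that moved apart, and they have the same coding sequence and separate starts. Mbnl2-201 overlapped, at 2.76, 0.501 and 0.0342 FPKM and 0.914, 0.195 and 0.291 FPKM. Of the 34.3 points that moved between Mbnl2 transcripts, 9.75 changed the coding sequence. Inclusion of the exon was 53.3, 62.2 and 49.1% with BMP4 and 64.8, 60.4 and 68.6% with palovarotene, so it overlapped. Weighted by length it did not overlap, at 51.9, 55.0 and 41.0% with BMP4 and 63.5, 57.9 and 63.6% with palovarotene. The share of Mbnl2-208 was 47.1% ± 12.9 and 61.6% ± 4.14 (SD, n = 3 each), and without BMP4 replicate 1 the difference fell from 14.4 to 7.62 points. Mbnl2 as a whole was at 10.2 ± 2.57 and 10.2 ± 0.640 FPKM (SD, n = 3 each). In BMP4 replicate 2 the gene row was 7.27 FPKM, while the listed transcripts summed to 16.1 FPKM. In BMP4 replicate 3 these values were 10.99 and 10.2 FPKM, so the shares of BMP4 replicate 2 rest on an unlike total. An antisense gene, Gm26679, overlaps Mbnl2 in the annotation, with the same limit as for Dcun1d1.

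Calcrl (ENSMUSG00000059588.13, chr2:84330626-84425411, minus strand) encodes the calcitonin receptor-like receptor, which pairs with RAMP proteins to form the receptors for adrenomedullin and calcitonin gene-related peptide. Calcrl-201 starts at 84425411 and Calcrl-202 at 84375358, inside an internal exon of Calcrl-201, and the same 1389 coding nucleotides lie in both. Calcrl-201 was at 6.96, 7.44 and 7.67 FPKM with BMP4 and at 1.95, 3.80 and 3.09 FPKM with palovarotene. Calcrl-202 was listed at 0 in each BMP4 library and at 5.63, 2.39 and 4.31 FPKM with palovarotene. The palovarotene libraries differed widely among themselves, and the share of Calcrl-202 was 74.3, 38.6 and 58.3% in them. The second palovarotene library kept Calcrl-201 as the leading transcript, and without palovarotene replicate 1 Calcrl-201 led on average in both groups. None of the 57.1 points that moved changed the coding sequence. Calcrl as a whole was at 7.43 ± 0.335 FPKM with BMP4 and 6.38 ± 0.474 FPKM with palovarotene (SD, n = 3 each), without overlap.

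Arfgap1 (ENSMUSG00000027575.19, chr2:180967225-180982526, plus strand) encodes a GTPase-activating protein of the small GTPase Arf1 at the Golgi. Of its 5 listed transcripts, Arfgap1-213 is annotated from start to stop codon only, 1209 nucleotides with no untranslated part, and has a coding exon of 30 nucleotides at chr2:180978412-180978441. Arfgap1-201 alone has a coding exon of 60 nucleotides at chr2:180979661-180979720. Both exons are shown in capitals with the neighbouring coding bases, since they tell these forms from the others.
Arfgap1-213: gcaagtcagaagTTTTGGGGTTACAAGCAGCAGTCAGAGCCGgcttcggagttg
Arfgap1-201: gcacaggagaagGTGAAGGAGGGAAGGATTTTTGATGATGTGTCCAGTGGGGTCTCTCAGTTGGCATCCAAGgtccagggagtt

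Arfgap1-213 was listed at 0 in every BMP4 library and stood at 7.40, 8.46 and 6.71 FPKM with palovarotene. Arfgap1-202 was at 4.08, 2.87 and 2.59 FPKM with BMP4 and at 0.648, 0.998 and 0.561 FPKM with palovarotene. These 2 were apart between the groups, and they led the gene with palovarotene and with BMP4. Arfgap1-201 overlapped, at 2.06, 2.63 and 2.23 FPKM and 2.27, 2.45 and 2.50 FPKM. Arfgap1-204 was slightly higher with palovarotene, at 0.574, 0.444 and 0.787 FPKM and 1.01, 0.840 and 0.943 FPKM, while Arfgap1-205 overlapped at 0.437, 0.900 and 0.831 FPKM and 0.487, 0.392 and 0.524 FPKM. The share of Arfgap1-201 was 34.0% ± 4.85 with BMP4 and 20.0% ± 1.93 with palovarotene (SD, n = 3 each), although its level overlapped. A short transcript gains FPKM from few fragments, so the shares were also taken after multiplying FPKM by length. On that scale Arfgap1-213 held 44.4% rather than 62.3% with palovarotene, and the share of Arfgap1-201 was 35.9% and 32.0% and overlapped. Arfgap1 as a whole was at 7.12 ± 0.222 and 6.59 ± 0.457 FPKM (SD, n = 3 each), with overlap. Its listed transcripts summed to 7.16, 6.84 and 6.44 FPKM with BMP4 and to 11.8, 13.1 and 11.2 FPKM with palovarotene. The total over which the shares are taken was thus higher with palovarotene, while the gene row was not.

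Sec16a (ENSMUSG00000026924.17, chr2:26409431-26445216, minus strand) encodes a scaffold of endoplasmic reticulum exit sites, where COPII coats form. Sec16a-201 and Sec16a-202 are near full length, with 7071 and 7131 coding nucleotides, and differ by a coding exon of 60 nucleotides at chr2:26413679-26413738, in capitals. Sec16a-208 starts inside an internal exon of the others and its annotated start is incomplete, with 2719 coding nucleotides.
Sec16a-202: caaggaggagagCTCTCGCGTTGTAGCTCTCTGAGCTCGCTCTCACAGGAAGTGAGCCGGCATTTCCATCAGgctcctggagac

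Sec16a-208 stood at 7.58, 7.32 and 7.24 FPKM with BMP4 and at 0.978, 1.32 and 1.29 FPKM with palovarotene. Sec16a-201 stood at 0.833, 0.620 and 0.199 FPKM with BMP4 and at 1.82, 2.17 and 2.63 FPKM with palovarotene. Neither overlapped between the groups. Sec16a-202 overlapped, at 3.15, 1.10 and 3.37 FPKM and 2.43, 1.92 and 1.96 FPKM, and its share was 23.5% ± 10.04 with BMP4 and 38.5% ± 7.03 with palovarotene (SD, n = 3 each). The second BMP4 library was its lowest, and without BMP4 replicate 2 the difference in its share was 9.23 rather than 14.9 points. Weighted by length the shares of Sec16a-202 overlapped, with a difference of 6.48 points. The incomplete form, Sec16a-208, went from 71.2% ± 8.53 to 21.6% ± 2.82 of the listed expression (SD, n = 3 each), or from 54.5% to 11.7% weighted by length. The gene row was lower with palovarotene, at 7.36, 5.09 and 6.83 FPKM and 4.63, 4.68 and 5.06 FPKM.

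Bend6 (ENSMUSG00000042182.16, chr1:33852052-33907816, minus strand) encodes a BEN domain protein that binds RBPJ and represses Notch-dependent transcription. Bend6-202 lacks a 208-nucleotide exon of Bend6-201, at chr1:33883441-33883648, and with it the start codon. The 120 coding nucleotides of that exon (chr1:33883441-33883560) are printed in capitals before the shared sequence.
Bend6-201: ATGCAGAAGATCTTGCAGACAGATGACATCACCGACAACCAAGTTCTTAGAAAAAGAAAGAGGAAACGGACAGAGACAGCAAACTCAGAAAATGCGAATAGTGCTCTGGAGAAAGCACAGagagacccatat

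Bend6-201 stood at 8.13, 8.47 and 7.91 FPKM with BMP4 and at 2.91, 3.79 and 3.67 FPKM with palovarotene. Bend6-202 was listed at 0 in every BMP4 library and stood at 2.99, 2.04 and 1.74 FPKM with palovarotene. Inclusion of the exon went from 100% in each BMP4 library to 49.3, 64.9 and 67.8% with palovarotene, and Bend6-201 led on average in both groups. The annotated coding sequence of Bend6-202 is shorter, 657 against 843 nucleotides. The gene row was 6.18 ± 0.198 FPKM with BMP4 and 4.18 ± 0.102 FPKM with palovarotene (SD, n = 3 each), a ratio of 0.677, the lowest of the 10. The annotation holds another locus, Gm37067, on the same strand within Bend6, whose reads may not be separable from it.

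Hgs (ENSMUSG00000025793.15, chr11:120467635-120483984, plus strand) encodes a subunit of ESCRT-0, the complex that sorts ubiquitinated receptors on endosomes toward lysosomes. Its 3 transcripts are almost equal in length, at 2908, 2901 and 2898 nucleotides. Hgs-202 and Hgs-203 differ by 3 nucleotides where an exon starts at 120479087 or 120479090, shown in capitals in Hgs-202 between the bases on either side.
Hgs-202: ccctttagtgagCAGtaccagaatggg
Hgs-203: ccctttagtgagtaccagaatggg

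Hgs-203, without the 3 nucleotides, stood at 21.0, 17.5 and 18.3 FPKM with BMP4 and at 10.6, 11.7 and 10.8 FPKM with palovarotene. Hgs-202, with them, stood at 7.28, 6.22 and 7.30 FPKM and then at 12.5, 13.6 and 12.6 FPKM. The groups did not overlap for either, and their libraries lay close together. The share of Hgs-203 was 57.9% ± 2.11 with BMP4 and 36.4% ± 0.366 with palovarotene, and that of Hgs-202 21.2% ± 1.52 and 42.5% ± 0.193 (SD, n = 3 each). Hgs-201, which differs from both at other exon boundaries, overlapped at 8.85, 5.27 and 6.62 FPKM and 6.38, 6.56 and 6.30 FPKM, with a share of 20.9% ± 2.85 and 21.1% ± 0.557. In the annotation used here Hgs-201 is placed under another gene entry that is also named Hgs and covers the same locus, and fragments that fit both cannot be told apart. The gene row overlapped, at 32.0 ± 4.03 and 29.7 ± 1.31 FPKM (SD, n = 3 each).

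**Figure D2:**
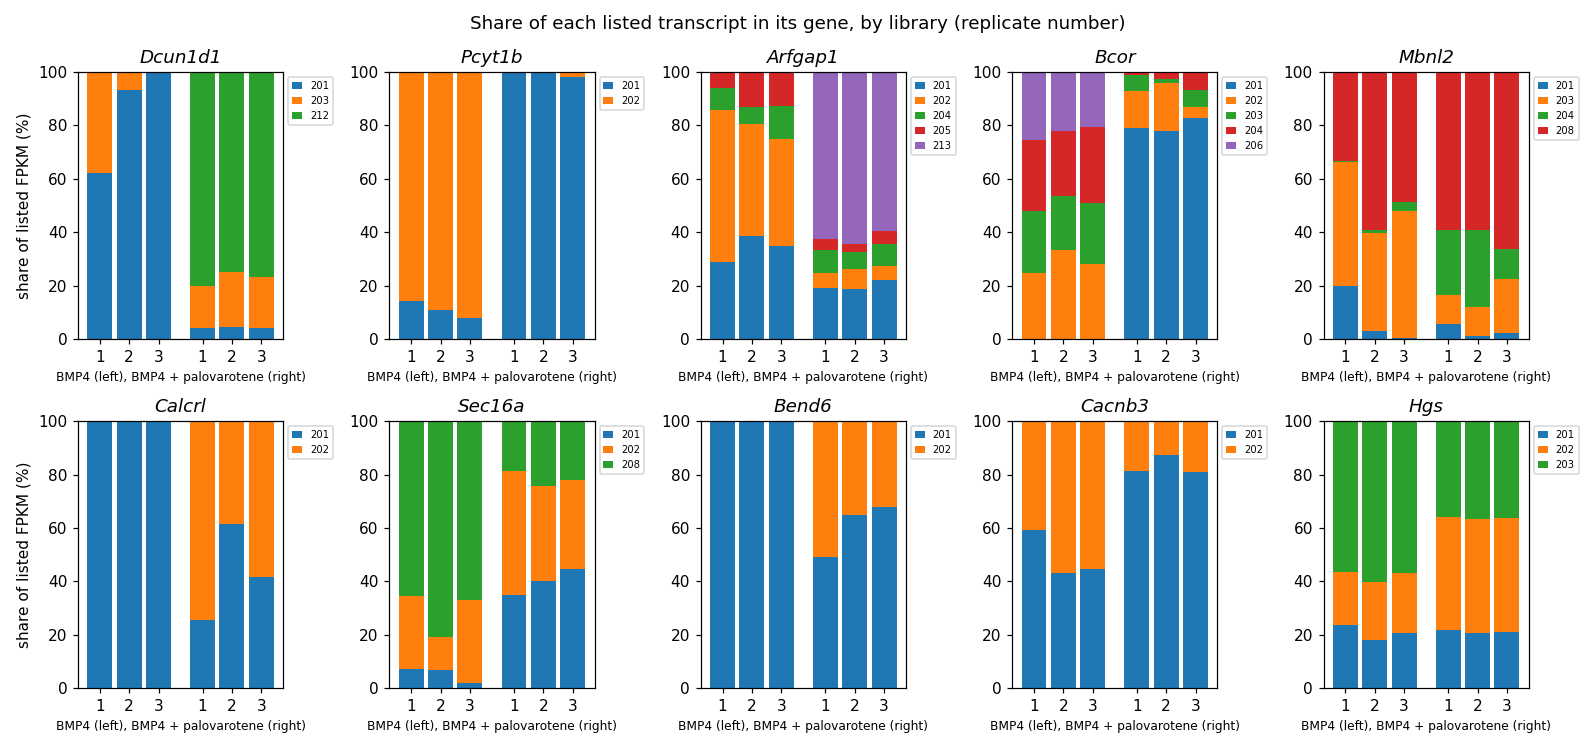
Share of each listed transcript in its gene, in percent of the summed FPKM of the listed transcripts, with 1 stacked bar per library, BMP4 replicates on the left of each panel and BMP4 plus palovarotene on the right. Pcyt1b-201 goes from 10.97% to 99.4%, while Hgs shifts from 57.9% to 36.4% for Hgs-203 and from 21.2% to 42.5% for Hgs-202.

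The share that moved depends on the unit of comparison, and the 10 genes differed in this. Counted by coding sequence rather than by transcript, the median was 44.4 points instead of 53.3. Calcrl fell to 0 and Mbnl2 to 9.75 by that count, and Bcor to 57.1. Counted by first exon it was 0 for Bend6 and Hgs, 29.6 for Mbnl2, and as large as by transcript for the other 7. Weighted by length, the median was 44.7 points, with Arfgap1 the most changed, from 62.3 to 46.5 points.

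**Figure D3:**
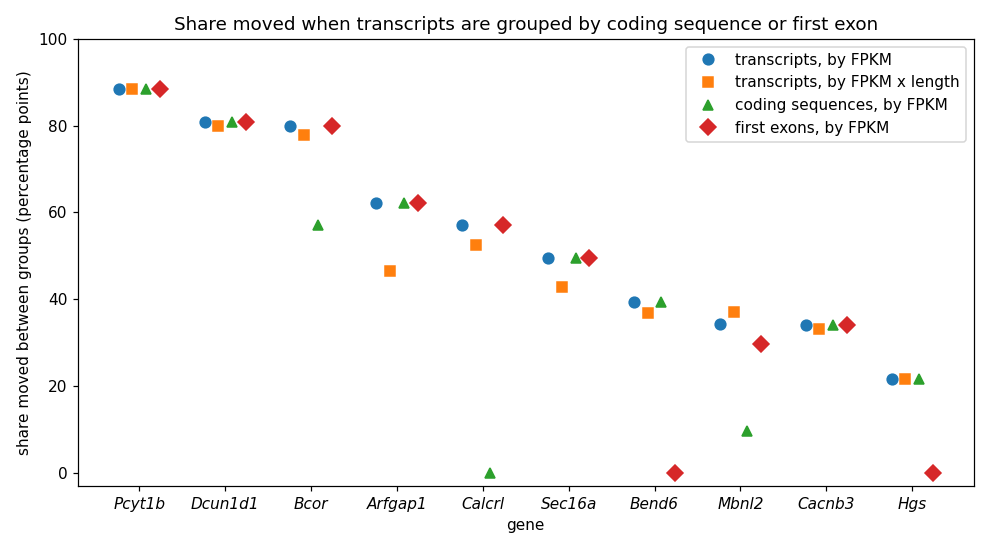
Share moved between groups in each of the 10 genes, in percentage points, counted by transcript FPKM, by FPKM times length, by coding sequence and by first exon. Calcrl has 0 points by coding sequence, and Bend6 and Hgs have 0 by first exon. The first-exon values of Arfgap1 and Sec16a rest on models that may lack their true 5′ end.

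**Figure D4:**
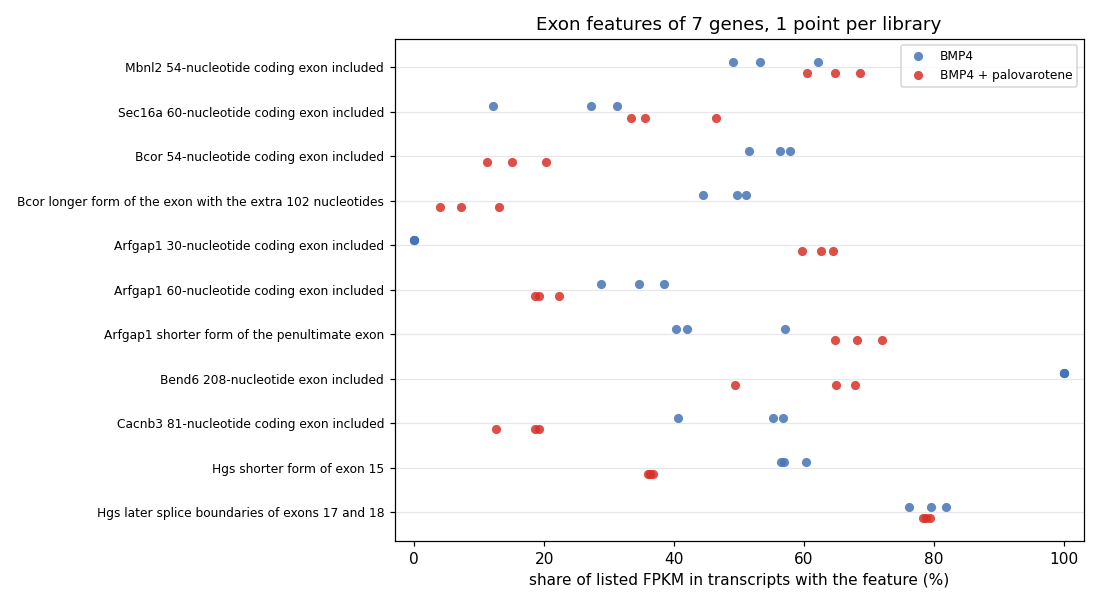
Share of listed expression, in percent, carried by transcripts with a given exon or exon form, with 1 point per library, for 11 features of 7 genes. The Arfgap1 exon of 30 nucleotides stands at 0 in the BMP4 libraries and at 59.7 to 64.4% with palovarotene, while the Mbnl2 exon of 54 nucleotides overlaps between the groups on this scale, though not when weighted by length.

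At the gene level the order was led by Cacnb3 and then Hgs in both groups, each apart from its neighbours by more than the spread between libraries. With BMP4, Mbnl2 followed at 10.2 ± 2.57 FPKM. Calcrl, Arfgap1, Sec16a, Pcyt1b and Bend6 came next, from 7.43 to 6.18 FPKM, and each neighbouring pair among them differed by less than the larger SD of the pair. Dcun1d1 at 5.34 FPKM and Bcor at 4.53 FPKM were below them by more than that. With palovarotene Bend6 was lowest at 4.18 FPKM, and Bcor at 5.75 FPKM lay above Sec16a and Dcun1d1. The gene row is close to a fixed multiple of the transcripts' summed FPKM times length in most of these genes. That ratio varied across the 6 libraries by 0.333% in Pcyt1b and by at most 4.08% in 8 of the genes, beside a median of 3.36% over 5452 genes. It varied by 32.9% in Arfgap1, where the summed FPKM rose with palovarotene and the gene row did not. The summed FPKM also rose in Dcun1d1 without a rise of its gene row, but there the ratio varied by 2.18%. In Mbnl2 it varied by 134%, with BMP4 replicates 2 and 3 at the extremes. In Arfgap1 and Mbnl2 the listed transcripts and the gene row do not move as one, and transcripts outside the table are not analysed here.

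Among the other 9 genes with transcripts called both ways, 8 had a mean gene level of at least 5 FPKM. Those with the largest share moved, chosen on the same contrast and so also given as a description, were Paip2, Med12, 2900026A02Rik, Rpl29 and March2, over 3 libraries a group. In Paip2, which encodes an inhibitor of poly(A)-binding protein, 53.7 points moved, with Paip2-203 at 56.5% and 2.77%. In Med12, a subunit of the Mediator kinase module, 42.5 points moved, with Med12-202 at 42.7% and 0.244%. The gene rows of Paip2 were 45.2 ± 14.7 and 26.6 ± 1.11 FPKM, and those of Med12 were 9.12 ± 0.588 and 9.57 ± 0.567 FPKM (SD, n = 3 each). The other three moved 29.4 points in 2900026A02Rik, 27.3 in the ribosomal protein gene Rpl29 and 26.2 in the ubiquitin ligase gene March2.

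The partners of these genes were not picked for opposite movement of their transcripts, and their gene rows were tested with limma on log2(FPKM + 1), adjusted over all 11584 tested genes. In all, 143 partner genes in 10 lists were tested and 61 (42.7%) were called, 41 higher and 20 lower. The background is high: 43.0% of all tested genes were called, 19.1% higher and 23.8% lower, with a median log2 difference of -0.03, so the partners' total share is near that of all genes. The lists were written with earlier results of these data known. Differences below are palovarotene minus BMP4 in log2(FPKM + 1), a scale that shrinks the change of low genes.

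Of 20 tested genes of NEDD8 conjugation, the pathway of Dcun1d1, 2 rose and 1 fell. Cul1, a cullin scaffold, rose from 32.9 ± 0.536 to 39.8 ± 1.48 FPKM (log2 difference 0.26, limma adjusted p = 0.00264). The calls of Nedd8 (0.26, limma adjusted p = 0.0284) and Cops5, the deneddylase subunit (-0.13, limma adjusted p = 0.0365), were each kept in only 1 of 6 fits that left out a library, and 1 gene of the list was called without palovarotene replicate 1 or replicate 3. The paralogs Dcun1d2, Dcun1d3, Dcun1d4 and Dcun1d5 were not called. Among 13 genes of phosphatidylcholine synthesis, 4 rose and 2 fell, and Slc44a1, a choline transporter, fell from 52.9 ± 3.58 to 36.7 ± 1.60 FPKM (-0.51, limma adjusted p = 0.000627). Lpin1, a phosphatidate phosphatase, rose from 2.19 ± 0.278 to 3.27 ± 0.0479 FPKM, and Cept1, which makes phosphatidylcholine in the last step, rose from 13.7 ± 0.165 to 17.5 ± 1.35 FPKM. The paralog Pcyt1a, at 22.3 ± 8.82 and 16.1 ± 8.98 FPKM, was not called (limma adjusted p = 0.395).

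In the list of Arf GTPases, their regulators and COPI coat subunits, 8 of 18 tested genes rose and 3 fell, and 7 in all were called without palovarotene replicate 1 or replicate 2. Arfgef1, an Arf exchange factor, rose from 8.93 ± 0.465 to 16.1 ± 0.883 FPKM (0.78, limma adjusted p = 7.79e-05), and Arf3 rose from 68.3 ± 2.46 to 90.9 ± 2.63 FPKM. Copg2, a coat subunit, fell from 8.65 ± 0.314 to 6.12 ± 0.176 FPKM. The paralogs Arfgap2 and Arfgap3 were not called. For Sec16a, 5 of 15 COPII and exit-site genes rose and none fell, with small differences: Sec24b rose from 16.8 ± 0.315 to 19.1 ± 0.0348 FPKM (0.17, limma adjusted p = 0.0119). Sec13 (0.18, limma adjusted p = 0.0138) was lost without palovarotene replicate 1, and Mia3 (0.13, limma adjusted p = 0.031) was called in 2 of 6 such fits. The COPII count was 2 without BMP4 replicate 3 or palovarotene replicate 3, 3 without palovarotene replicate 2 and 1 without palovarotene replicate 1. The paralog Sec16b was not called (limma adjusted p = 0.154).

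Of 13 genes in a list of polycomb subunits, Bcl6 and the paralog of Bcor, 7 rose and none fell. Pcgf6 rose from 4.06 ± 0.210 to 7.94 ± 0.354 FPKM (0.82, limma adjusted p = 5.16e-05), Yaf2 from 30.3 ± 2.86 to 54.0 ± 2.04 FPKM, and Rybp from 9.25 ± 1.01 to 17.2 ± 1.07 FPKM; all are polycomb subunits, but Pcgf6 and Pcgf3, which also rose, belong to other variant complexes than that of Bcor. Pcgf1, the subunit particular to the Bcor complex, was not called (-0.17, limma adjusted p = 0.0993), nor were Kdm2b, Ring1, Skp1a and Usp7, which also belong to it. The paralog Bcorl1 rose from 1.82 ± 0.117 to 2.30 ± 0.150 FPKM (0.22, limma adjusted p = 0.0222), a call lost without BMP4 replicate 1, palovarotene replicate 2 or palovarotene replicate 3. The list's count was 4 without BMP4 replicate 1, palovarotene replicate 1 or palovarotene replicate 3, and 3 without palovarotene replicate 2. Among 14 tested RBPJ and Notch genes, partners of Bend6, 3 rose and 5 fell, and 6 to 7 were called when a library was left out. The ligand gene Jag1 fell from 7.41 ± 0.0559 to 3.05 ± 0.161 FPKM (-1.05, limma adjusted p = 9.94e-06), Notch1 fell from 4.81 ± 0.381 to 3.08 ± 0.0247 FPKM, and Notch3 rose from 5.37 ± 0.625 to 8.60 ± 0.341 FPKM.

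Among 17 tested splicing regulators, 4 rose and 3 fell, and 4 in all were called without palovarotene replicate 1 or replicate 3. Khdrbs3, a STAR-family RNA-binding protein, fell from 16.6 ± 0.753 to 10.1 ± 0.779 FPKM (-0.67, limma adjusted p = 0.000249). Ptbp1, the polypyrimidine tract-binding protein, rose from 23.0 ± 1.14 to 30.8 ± 1.14 FPKM, and Celf2 rose from 2.48 ± 0.298 to 4.15 ± 0.481 FPKM. The Mbnl2 paralogs Mbnl1 (limma adjusted p = 0.115) and Mbnl3 (limma adjusted p = 0.0984) were not called. Whether any of these genes bears on the exon changes above was not tested.

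Of 6 tested genes of the adrenomedullin and calcitonin gene-related peptide system, the ligand gene Adm rose from 1.19 ± 0.119 to 3.21 ± 0.187 FPKM (0.94, limma adjusted p = 4.64e-05) and the decoy receptor gene Ackr3 rose from 8.72 ± 0.513 to 10.2 ± 0.139 FPKM, a call lost without palovarotene replicate 1 or replicate 3. Ramp2, which escorts the Calcrl product, was 6.11 ± 0.580 and 4.86 ± 0.627 FPKM and was not called (limma adjusted p = 0.0575). Of 6 tested calcium channel genes, 1 rose and 3 fell. Gem, a small GTPase that binds beta subunits, fell from 12.8 ± 1.12 to 4.61 ± 0.593 FPKM (-1.30, limma adjusted p = 6.42e-05). Cacna1g, a pore-forming subunit, rose from 4.03 ± 0.239 to 7.34 ± 0.285 FPKM, and the paralog Cacnb1 fell from 2.84 ± 0.420 to 1.73 ± 0.0613 FPKM. Of 21 ESCRT genes, partners of Hgs, 5 rose and 3 fell. Vps4a, the ATPase that disassembles the complexes, rose from 19.6 ± 0.450 to 24.7 ± 0.766 FPKM (0.32, limma adjusted p = 0.00124), Stam fell from 9.64 ± 0.540 to 7.72 ± 0.348 FPKM, and the deubiquitinase gene Usp8 rose from 19.0 ± 0.956 to 22.5 ± 0.822 FPKM. The ESCRT count was 4 without BMP4 replicate 2, BMP4 replicate 3 or palovarotene replicate 2, and 3 without palovarotene replicate 3, and Stam2 was not called (limma adjusted p = 0.381).

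The labelled cell type was checked on marker genes. Of 12 endothelial markers 4 are listed, with a summed level of 26.7 to 30.3 FPKM with BMP4 and 24.8 to 27.0 FPKM with palovarotene; Flt1, Vwf and Tek were lower with palovarotene, Eng was not called, and the other 8, among them Pecam1 and Cdh5, are not analysed here. All 9 fibroblast markers are listed, summing to 1067 to 1155 FPKM with BMP4 and 1231 to 1288 FPKM with palovarotene, 3 of them higher and 4 lower. The higher sum rests largely on Col1a1, which rose from 523 ± 32.9 to 684 ± 25.2 FPKM. Pdgfra and Fap were also higher, Pdgfrb, Thy1, Dcn and Lum were lower, and Col1a2 and Col3a1 were not called. Of 7 leukocyte markers Cd68 and Cd14 are listed and both were lower, from a summed 16.6 to 17.8 FPKM to 10.1 to 11.1 FPKM. The part of these differences in the transcript shares was not tested.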

How the data were processed

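The authors deposited a gene table and a transcript table of FPKM values for 3 libraries of each group; per the submitters' processing notes FastQC, cutadapt, HISAT2 and StringTie were used with GRCm38, in versions not given in the sources used here. No counts are given, so depth is unknown and no counting interval can be had. Exon, coding and first-exon structure was taken from GENCODE vM21 (GRCm38) for the same transcript IDs: 21147 of the 22330 listed transcripts had the same version, 1122 another and 61 none. Promoter windows come from RefSeq.

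Genes and transcripts were tested with limma 3.58.1 in R 4.3.3 (variance trend) on log2(FPKM + 1), keeping those with a mean of at least 0.5 FPKM, without a replicate block, with Benjamini-Hochberg adjustment and an adjusted p below 0.05. The model was tested on simulated data, where 95.5% of 2-fold changes were recovered for genes and 68.7% for transcripts. For 1.5-fold changes the recovery was 80.6% and 35.8%. Changed features were drawn only from those well above the filter, so the recovery does not cover low transcripts. The named genes are all 10 chosen genes, the 3 partners of each list with the smallest p and tested paralogs, and the 5 other genes with transcripts called both ways that moved the most share. Some further genes of the Bcor list, and Stam2, are named beside these. The members and lists were chosen with earlier results of these data known. Alternatives were another pseudocount, other filters, quantile normalization, no trend, a replicate block, leaving out each library, and other shares; weighting by length was added after seeing the data.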

Additional observations from a re-analysis of the deposited data

How the results depend on the processing

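Values are FPKM with unknown depth, so low transcripts cannot be separated from counting noise, and a value listed at 0 may be a failed estimate. Same-numbered libraries did not deviate together (r = -0.064, -0.136 and -0.0207 over genes; -0.0204, -0.0297 and -0.0202 over transcripts), so the numbers are not taken as pairs. Counts with an alternative are set against the main count and need not be the same features. The replicate block gave 715 transcript calls against 2724 and 5 genes called both ways against 19, with 4 of the 10 chosen genes among them. It gave 7 calls against 11 for Arf and COPI, 1 against 2 for adrenomedullin, 0 against 5 for COPII and 4 against 8 for ESCRT. Requiring at least 5 FPKM, which tests fewer features, gave 3111 gene calls against 4976, 9 genes called both ways with 2 of the chosen 10, 1 call for adrenomedullin and 4 against 8 for RBPJ and Notch.

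Leaving out 1 library gave 3826 to 4798 gene calls, 1468 to 2341 transcript calls and 17 to 36 genes called both ways, with 6 to 8 of the chosen 10 among them. Calls ranged from 1 to 3 for NEDD8, 7 to 11 for Arf and COPI and 3 to 6 for the Bcor list. For splicing regulators they ranged from 4 to 8, for adrenomedullin from 1 to 3, for COPII from 1 to 5 and for ESCRT from 3 to 8. RBPJ and Notch gave 6 to 7 calls against 8, phosphatidylcholine synthesis 4 to 6 and calcium channels 4 to 5. Of the 10 genes, 7 or 8 had another leading transcript. Weighted by length the count was 8, but Cacnb3 replaced Mbnl2 among the exceptions. Of 304 share differences recomputed, 8 changed sign, in 5 transcripts. Against the gene row Arfgap1-201 gave 4.13 points and Arfgap1-204 gave 5.74, and weighted by length Arfgap1-204 gave 2.09. Without 1 library the share differences ranged from -2.35 to 0.517 points for Arfgap1-204, -8.36 to 1.33 for Mbnl2-201, -1.06 to 1.78 for Hgs-201 and -3.89 to 15.0 for Dcun1d1-203, and log2 differences from -0.010 to 0.11 for Arfgap1-201, -0.46 to 0.068 for Sec16a-202 and -0.23 to 0.10 for Hgs-201. For the 41 named partners, 448 of 481 alternatives stayed on the same side of the threshold, 26 lost the call, 7 gained it and none changed sign. The other settings moved none of these counts by over 1.5 times, and the cause of the changes was not tested.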
